A study of Rattus norvegicus with 16 samples.

Results

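Hepatobiliary transporters carry bile acids, bilirubin, drugs and their conjugates across the 2 faces of the hepatocyte, and 7 of their genes were followed here in rat liver. The genes are the uptake transporters Slco1a1, Slco1a4 and Slc10a1, the canalicular pumps Abcb11, Abcb4 and Abcc2, and the basolateral pump Abcc3. They were taken by gene symbol from the array annotation, which gave 1 probe set to each gene, so 7 of the 4736 genes that the annotation names (7 of 8740 probe sets) are described. Liver RNA came from male Fischer F344 rats, 6 weeks old when obtained, in groups of 4 dosed with D3T, oltipraz (OLT), TBD or vehicle alone. The 3 compounds are dithiolethiones given at 0.3 mmol/kg by gavage on alternate days for 5 days, in saturated sucrose, which was all the vehicle group received, and livers were frozen 24 h after dose 3. The dithiolethione ring is unsubstituted in D3T, bears pyrazinyl and methyl substituents in OLT, and bears a tert-butyl substituent in TBD. The vehicle rats are titled as untreated, although the protocol gives them sucrose.

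Uptake from portal blood runs through NTCP, the sodium-coupled bile acid carrier encoded by Slc10a1, and through organic anion transporting polypeptides, of which Slco1a1 and Slco1a4 encode 2 rodent members. At the canalicular face, BSEP (Abcb11) pumps bile acids, MDR2 (Abcb4) moves phosphatidylcholine into bile, and MRP2 (Abcc2) exports bilirubin glucuronides and glutathione conjugates. MRP3 (Abcc3) exports conjugates back into blood, is scarce in normal rat hepatocytes, and is known to be raised when canalicular export fails. Abcc2 and Abcc3 are known targets of NRF2, the transcription factor that dithiolethiones activate, while the nuclear receptor FXR (Nr1h4) is known to raise Abcb11 and to restrain uptake and bile acid synthesis through its target SHP (Nr0b2).

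The values are log2 GCRMA expression values of whole liver, 1 array per animal. Array medians lay between 3.27 and 3.58. A difference was called at a Benjamini-Hochberg adjusted p under 0.05 in limma, adjusted over 5323 probe sets tested, and all 7 transporters were among these. In whole tissue, fewer cells of a type and less RNA per cell cannot be told apart. Of the hepatocyte markers, 11 of 12 were tested, and their summed level (log2) lay at 17.74 to 17.84 with D3T, 17.47 to 17.80 with OLT, 17.59 to 17.86 with TBD and 17.57 to 17.64 with vehicle. Every D3T array thus lay above every vehicle array in this sum. The sum is weighted to the brightest markers, and Alb among them read near the highest deposited value, which limits what it can show. OLT replicate 1 and TBD replicate 4 lay lowest on the second principal component, at -21.7 and -21.8, and counts without them are given below. OLT replicate 4 (-12.6) and TBD replicate 3 (-8.74) came next, and vehicle replicate 1 was highest at 14.1.

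Slco1a1 fell with all 3 compounds. Its level was 6.40, 6.09, 6.25 and 6.34 on the D3T arrays. The OLT arrays read 7.32, 6.41, 6.98 and 6.49, and the TBD arrays 6.34, 6.17, 5.99 and 6.50. Vehicle arrays read 7.98, 8.78, 8.59 and 8.61. Every array of a treated rat lay below every vehicle array, and the lowest vehicle reading, on replicate 1, was still above the highest OLT reading. The log2 difference was -2.22 ± 0.20 with D3T (SE, n = 4 per group, limma adjusted p = 1.1e-05), a level 4.65-fold lower. It was -1.69 ± 0.20 with OLT (3.23-fold lower, adjusted p = 0.000171) and -2.24 ± 0.20 with TBD (4.72-fold lower, adjusted p = 1.91e-05). These 3 calls share the vehicle arrays.

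Slco1a4, whose product OATP1A4 also takes up bile acids and organic anions, passed in none of the comparisons with vehicle. It read 8.84, 9.46, 9.68 and 9.01 with D3T and 10.33, 9.84, 9.90 and 10.09 with OLT. It read 9.61, 9.64, 9.57 and 8.89 with TBD, and 9.06, 9.97, 9.64 and 9.56 with vehicle. Within the vehicle range lay 2 of 4 D3T arrays and 3 of 4 TBD arrays, and 2 of 4 OLT arrays lay above it. The difference from vehicle was -0.31 (95% interval -0.80 to 0.17) with D3T, 0.48 (0.00 to 0.97, adjusted p = 0.22) with OLT and -0.13 (-0.61 to 0.36) with TBD. With array weights, 1 of the 27 alternatives, D3T was called (-0.39, adjusted p = 0.043), and the sign with TBD depended on the array left out. Close paralogs of this family can share probe hybridisation, so the separation of Slco1a1 from Slco1a4 rests on the array's probe choice.

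The 2 Slco1a genes lie 111 kb apart on chromosome 4, on the same strand (GRCr8; Slco1a1 at chr4:176606924-176682027, Slco1a4 at chr4:176441104-176495846). Their start regions are shown because the genes are neighbours of similar sequence with unlike readings in treated rats. Each window runs from 250 bases before a RefSeq start to 50 after it, on the minus strand of GRCr8 (chr4:176681943-176682242 for Slco1a1, chr4:176495797-176496096 for Slco1a4). For Slco1a1 that start lies inside the gene span given above, not at its upstream end. Capitals mark bases that differ from, or have no partner in, the other window in a global alignment.
Slco1a1: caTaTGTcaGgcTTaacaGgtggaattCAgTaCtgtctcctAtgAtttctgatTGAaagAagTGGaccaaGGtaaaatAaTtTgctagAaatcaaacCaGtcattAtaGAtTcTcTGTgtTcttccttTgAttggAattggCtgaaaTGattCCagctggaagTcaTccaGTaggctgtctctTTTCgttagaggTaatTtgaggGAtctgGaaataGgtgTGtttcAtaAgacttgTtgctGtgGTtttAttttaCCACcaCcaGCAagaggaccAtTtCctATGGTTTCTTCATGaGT
Slco1a4: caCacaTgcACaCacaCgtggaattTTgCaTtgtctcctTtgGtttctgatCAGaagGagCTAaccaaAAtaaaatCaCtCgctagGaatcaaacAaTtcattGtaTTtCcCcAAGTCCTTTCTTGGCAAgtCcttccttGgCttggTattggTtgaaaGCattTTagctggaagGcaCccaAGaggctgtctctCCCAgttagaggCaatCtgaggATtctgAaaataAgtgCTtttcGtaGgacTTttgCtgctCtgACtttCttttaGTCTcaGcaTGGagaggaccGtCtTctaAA
Of 283 aligned positions, 204 were identical (72.1%). The other 9 pairs among the 5 transporter windows found in RefSeq had 37.8% to 52.9% identity. Within each array, the log2 reading of Slco1a1 minus that of Slco1a4 shifted relative to vehicle by -1.91 with D3T, by -2.17 with OLT and by -2.11 with TBD. That difference lay between -3.43 and -2.43 on D3T arrays, between -3.60 and -2.92 on OLT arrays and between -3.58 and -2.39 on TBD arrays, against -1.19 to -0.95 on vehicle arrays. The pair was chosen after the values were seen, and no test is given for it.

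Slc10a1, the main sodium-dependent bile acid carrier, fell with D3T. It read 11.88, 12.33, 12.14 and 11.78 with D3T and 12.28, 12.41, 12.38 and 12.51 with OLT. It read 12.37, 12.22, 12.02 and 12.13 with TBD, and 12.45, 12.68, 12.36 and 12.58 with vehicle. All 4 D3T arrays lay below all 4 vehicle arrays, 3 of 4 TBD arrays did, and 1 of 4 OLT arrays did. The D3T difference was -0.48 ± 0.12 (1.40-fold lower, adjusted p = 0.0121, limma). TBD gave -0.33 (95% interval -0.59 to -0.08, adjusted p = 0.088) and OLT gave -0.12 (-0.38 to 0.14), and neither was called.

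**Figure D1:**
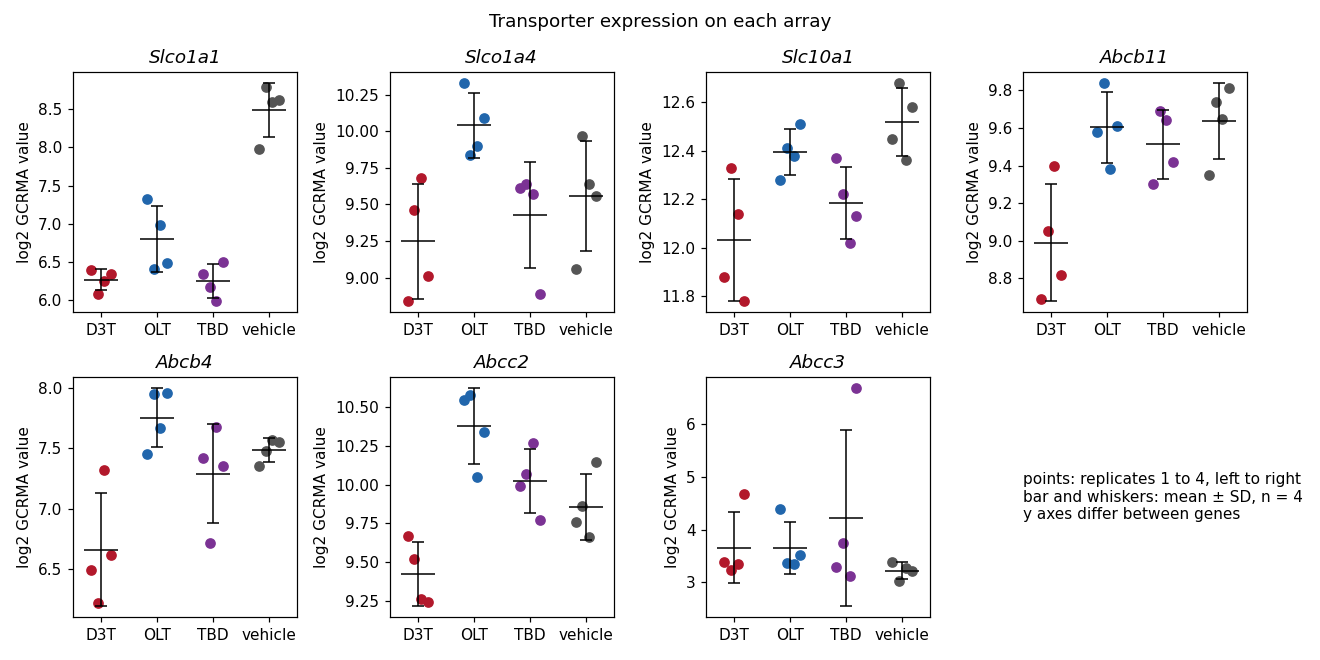
Log2 GCRMA value (y axis, a separate scale for each gene) of the 7 transporters on every array, by group (x axis), with points for replicates 1 to 4 and bars for mean ± SD (n = 4). Slco1a1 separates all treated arrays from vehicle, and Abcc3 has 1 TBD array at 6.69 with the others at 3.12 to 3.75.

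At the canalicular face, Abcb11 and Abcb4 fell with D3T. Abcb11 read 8.69, 9.05, 9.40 and 8.82 with D3T, 9.58, 9.84, 9.38 and 9.61 with OLT, and 9.30, 9.69, 9.64 and 9.42 with TBD. With vehicle it read 9.35, 9.74, 9.65 and 9.81. Of the D3T arrays, 3 lay below every vehicle array, and D3T replicate 3 lay within the vehicle range. The difference with D3T was -0.65 ± 0.15 (1.57-fold lower, adjusted p = 0.0095, limma). It was -0.04 (95% interval -0.37 to 0.29) with OLT and -0.13 (-0.46 to 0.20) with TBD, without a call, and both of these turned above 0 after renewed quantile normalization (0.066 and 0.00802).

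Abcb4 read 6.49, 6.21, 7.32 and 6.61 with D3T. It read 7.45, 7.95, 7.67 and 7.96 with OLT, 7.42, 6.71, 7.68 and 7.35 with TBD, and 7.35, 7.48, 7.57 and 7.55 with vehicle. All D3T arrays lay below all vehicle arrays, replicate 3 by the smallest margin. The D3T difference was -0.83 ± 0.23 (1.78-fold lower, adjusted p = 0.0187, limma). OLT differed from vehicle by 0.27 (95% interval -0.21 to 0.75) and TBD by -0.20 (-0.68 to 0.28). The D3T call was lost after renewed quantile normalization (-0.59, adjusted p = 0.0964) and without D3T replicate 1 (adjusted p = 0.0567) or D3T replicate 2 (-0.68, adjusted p = 0.0597). The TBD difference turned to 0.027 after renewed quantile normalization.

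Abcc2 rose with OLT. It read 9.67, 9.52, 9.26 and 9.24 with D3T, 10.55, 10.58, 10.05 and 10.34 with OLT, and 9.99, 10.07, 10.27 and 9.77 with TBD. With vehicle it read 9.76, 9.86, 9.66 and 10.15. Of the OLT arrays 3 lay above all vehicle arrays, and of the D3T arrays 3 lay below them. The OLT difference was 0.52 ± 0.15 (1.44-fold higher, adjusted p = 0.0353, limma), while D3T gave -0.44 (95% interval -0.76 to -0.12, adjusted p = 0.0562) and TBD 0.17 (-0.15 to 0.49, adjusted p = 0.636). The OLT call was lost in 13 of 27 alternatives, with differences of 0.46 to 0.63 and adjusted p of 0.00635 to 0.104 over all 27. It was lost after centring of array medians (adjusted p = 0.0807), without OLT replicate 1, 2 or 4 and without vehicle replicate 1, 2 or 3. The D3T difference was called without D3T replicate 1 (adjusted p = 0.0433), vehicle replicate 3 (0.0475), OLT replicate 3 (0.0421) or TBD replicate 4 (0.0477).

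The windows of Slc10a1 and Abcc2 are shown because 1 gene fell with D3T, the other rose with OLT, and both hold matches to motifs searched. Searched on both strands were TGACNNNGC, the core of the antioxidant response element that NRF2 binds, AGGTCA, the core that many nuclear receptors bind, GTTAAT, part of the site of the hepatocyte factor HNF1, and TATAAA, the TATA box. Capitals mark the matches in the windows, which lie at chr6:106357895-106358194 on the minus strand for Slc10a1 and at chr1:252613625-252613924 on the plus strand for Abcc2 (RefSeq, GRCr8).
Slc10a1: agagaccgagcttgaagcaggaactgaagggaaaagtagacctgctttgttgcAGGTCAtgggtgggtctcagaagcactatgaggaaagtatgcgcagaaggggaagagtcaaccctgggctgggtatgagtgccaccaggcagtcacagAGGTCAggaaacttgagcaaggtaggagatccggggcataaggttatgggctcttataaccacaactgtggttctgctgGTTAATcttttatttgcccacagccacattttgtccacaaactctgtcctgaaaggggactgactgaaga
Abcc2: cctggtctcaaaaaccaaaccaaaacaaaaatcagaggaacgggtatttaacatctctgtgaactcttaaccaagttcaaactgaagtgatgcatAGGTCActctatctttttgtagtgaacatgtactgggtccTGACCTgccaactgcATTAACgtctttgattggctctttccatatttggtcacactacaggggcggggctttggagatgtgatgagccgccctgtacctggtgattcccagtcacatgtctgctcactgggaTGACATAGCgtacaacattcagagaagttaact
Slc10a1 held AGGTCA 197 and 99 bases before the start and GTTAAT 20 bases before it, and no match to TGACNNNGC. Abcc2 held 1 match to TGACNNNGC, 17 bases after the start, as well as AGGTCA on the plus strand 155 bases before the start and on the minus strand 115 bases before it, and GTTAAT on the minus strand 100 bases before it. None of these matches overlapped another. Of 27457 RefSeq windows of this length, 12.2% held TGACNNNGC, 15.7% AGGTCA, 7.37% GTTAAT and 14.3% TATAAA. The windows of Slco1a1, Slco1a4 and Abcb4 held none of the 4. The Abcb4 window (chr4:26164096-26164395, minus strand) lies wholly within the gene span (chr4:26106895-26164440), so it does not cover the sequence before that span.

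Abcc3 was dim and varied from array to array. It read 3.39, 3.23, 3.34 and 4.68 with D3T, 4.39, 3.36, 3.35 and 3.52 with OLT, and 3.29, 3.75, 3.12 and 6.69 with TBD. With vehicle it read 3.39, 3.02, 3.27 and 3.21, below the array median on all 4 arrays. Only 1 D3T, 2 OLT and 2 TBD arrays lay above their own medians, and 1 array in each treated group stood well above the rest. The differences were 0.43 (95% interval -0.87 to 1.74) with D3T, 0.43 (-0.87 to 1.73) with OLT and 0.98 (-0.32 to 2.29, adjusted p = 0.377) with TBD. No call was made, and each of these intervals takes in falls as well as rises.

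Counted over the 7 genes, 4 fell and 0 rose with D3T, where 18.4% of all probe sets tested were called (12.2% lower, 6.18% higher). With OLT, 1 fell and 1 rose, against 11.3% of all probe sets called (7.89% lower, 3.38% higher). With TBD, 1 fell, against 13.0% called (9.47% lower, 3.55% higher). The median difference of the 7 was -0.48 with D3T, 0.27 with OLT and -0.13 with TBD, beside medians over all 3104 genes tested of 0.03, -0.03 and -0.02. Groups did not overlap for 3 of 7 with D3T, 1 with OLT and 1 with TBD, where 24.9%, 14.7% and 14.3% of all probe sets did not overlap. Without OLT replicate 1 and TBD replicate 4, the genes called numbered 5 with D3T, 1 with OLT and 1 with TBD, where Abcc2 gained its D3T call (adjusted p = 0.0483) and lost its OLT call (0.0698).

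The share of higher calls over all probe sets depended on scaling. With D3T, 329 were higher and 652 lower as deposited, 672 and 599 after renewed quantile normalization, and 513 and 659 after centring. OLT had 180 higher and 420 lower, then 298 and 343, and 151 and 210. TBD had 189 and 504, then 312 and 383, and 143 and 283. The falls of Slco1a1 with the 3 compounds and of Slc10a1 and Abcb11 with D3T were called under both scalings. Between D3T and OLT, 21 were higher and 36 lower as deposited, 48 and 44 after quantile normalization, and 13 and 33 after centring. Between D3T and TBD the counts were 10 and 25, then 20 and 30, and 2 and 11.

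**Figure D2:**
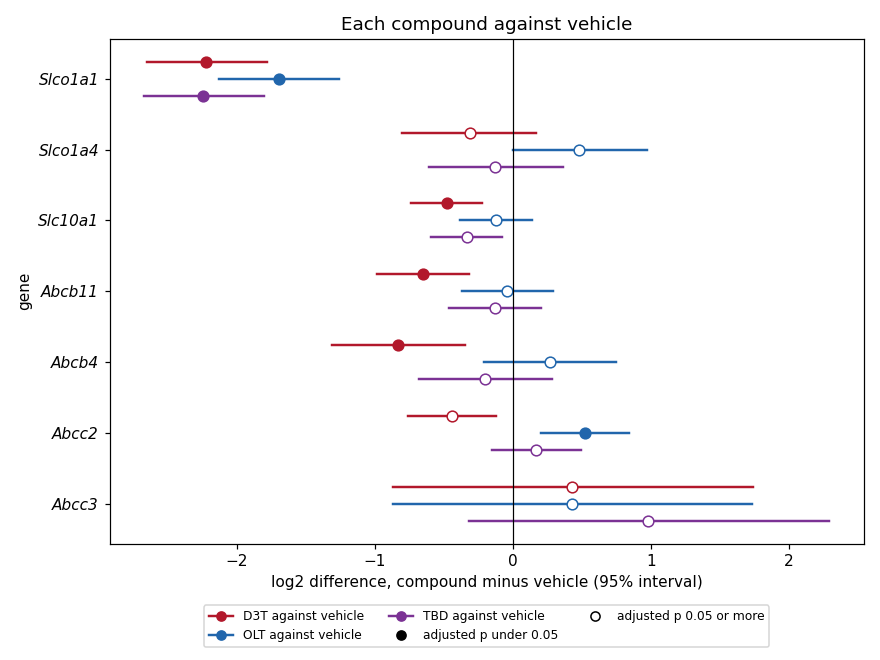
Log2 difference of each compound from vehicle (x axis) for the 7 transporters (y axis), with 95% intervals of the limma fit as lines and filled points where the adjusted p was under 0.05. Slco1a1 lies near -2 with all 3 compounds, and only D3T has filled points at Slc10a1, Abcb11 and Abcb4.

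A fall called with 1 compound and not with another does not show that compounds differ, so the 3 compounds, given at 1 dose and time, were also compared in pairs. Of 21 such differences (7 genes in 3 pairs), 2 were called, both between D3T and OLT. Abcc2 averaged 9.42 ± 0.21 with D3T and 10.38 ± 0.24 with OLT (SD, n = 4 each), a difference of -0.96 ± 0.15 (1.94-fold lower with D3T, limma adjusted p = 0.00438). It was called in all 27 alternatives, with adjusted p of 0.00149 to 0.0249. Abcb4 averaged 6.66 ± 0.47 with D3T and 7.76 ± 0.25 with OLT, a difference of -1.10 ± 0.23 (2.15-fold lower with D3T, adjusted p = 0.0285). Arrays of the 2 compounds did not overlap for either gene. The Abcb4 call was lost when only the 8 arrays compared were fitted (adjusted p = 0.0804), after quantile normalization (0.0563), and without D3T replicate 1, 2 or 4 or OLT replicate 2, 3 or 4 (up to 0.0961). Between D3T and OLT 1.07% of all probe sets were called (0.676% lower, 0.395% higher), and 7.53% did not overlap, against 4 of the 7 transporters.

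The other D3T to OLT differences were -0.79 for Slco1a4 (95% interval -1.28 to -0.31, adjusted p = 0.119), -0.61 for Abcb11 (-0.94 to -0.28, adjusted p = 0.0875), -0.53 for Slco1a1 (-0.96 to -0.09, adjusted p = 0.293) and -0.36 for Slc10a1 (-0.62 to -0.10, adjusted p = 0.209). Abcb11 was called without D3T replicate 3 (-0.75, adjusted p = 0.0301). No transporter was called between D3T and TBD, where 0.658% of all probe sets were called (0.470% lower, 0.188% higher), and 1 of 7 (Abcc2) did not overlap, against 9.21% of all probe sets. Abcc2 differed there by -0.61 (-0.92 to -0.29, adjusted p = 0.0999), Abcb4 by -0.63 (-1.12 to -0.15) and Abcb11 by -0.52 (-0.85 to -0.19), while Slco1a1 differed by 0.02 (-0.42 to 0.46) and the sign of that value depended on the setting. Abcc2 passed between D3T and TBD with array weights (adjusted p = 0.0364) and with p adjusted over all 6 comparisons together (0.0252), which also called Abcb11 between D3T and OLT (0.0284).

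Between TBD and OLT no transporter was called either, where 0.0564% of all probe sets were called, and 1 of 7 (Slco1a4) did not overlap, against 1.05% of all probe sets. The TBD to OLT difference was -0.61 for Slco1a4 (95% interval -1.10 to -0.13), -0.55 for Slco1a1 (-0.98 to -0.11), -0.47 for Abcb4 (-0.95 to 0.01) and -0.35 for Abcc2 (-0.67 to -0.03). For Slc10a1 it was -0.21 (-0.47 to 0.05) and for Abcb11 -0.09 (-0.42 to 0.24). An adjusted p above the threshold does not show that the compounds act alike, since several of these intervals lie wholly below 0.

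Ranked by group mean, OLT was the highest of the 3 compounds for all 6 transporters other than Abcc3, and D3T was the lowest for 5 of the 6, the exception being Slco1a1 (TBD 6.25 ± 0.22, D3T 6.27 ± 0.13). For Slco1a4, Abcb4 and Abcc2 the OLT mean also stood above vehicle. Of neighbouring groups in these orders, only OLT and vehicle for Slco1a1 differed with a call. D3T was below OLT for 6 of the 7 genes, while 33.4% of all 3104 genes tested had D3T below OLT, and TBD was below OLT for 6 of 7, against 41.0% of all genes. These counts describe the 7 genes, and no test is attached to them.

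**Figure D3:**
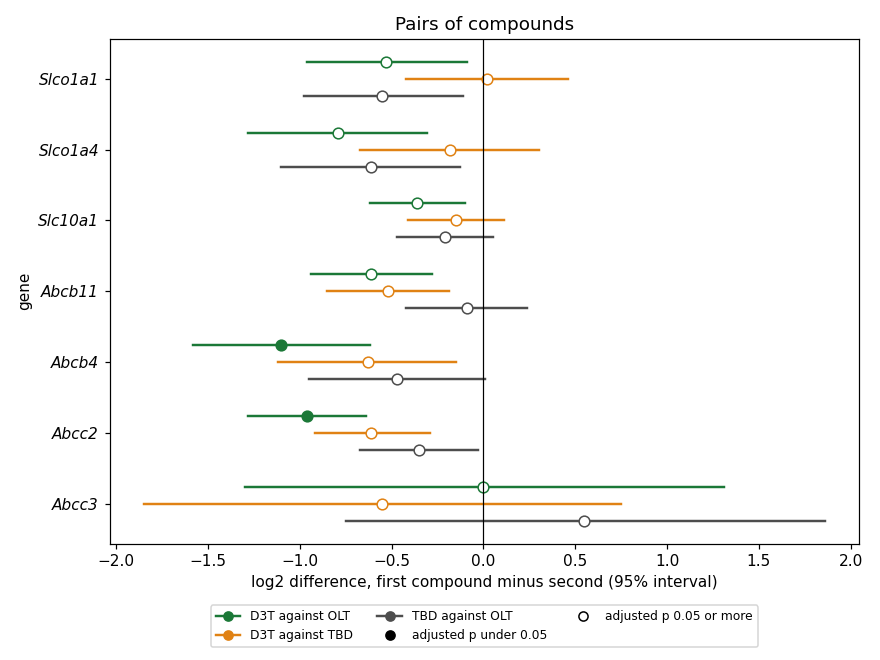
Log2 difference between pairs of compounds (x axis, first named minus second) for the 7 transporters (y axis), with 95% intervals of the limma fit and filled points where the adjusted p was under 0.05. The filled points are Abcb4 and Abcc2 in D3T against OLT, at -1.10 and -0.96.

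Around the transporters, other genes of bile formation were read from lists. Of 33 other hepatic transporter genes, 14 were tested. With D3T 0 rose and 1 fell, with OLT 1 rose and 2 fell, and with TBD 1 rose and 3 fell, with medians of -0.11, -0.06 and -0.21. Over all 3104 genes tested, 4.61% rose and 13.1% fell with D3T, 2.61% rose and 8.92% fell with OLT, and 2.80% rose and 10.0% fell with TBD. The carnitine carrier gene Slc22a5 fell with D3T (-0.64 ± 0.16, adjusted p = 0.0122), OLT (-0.66 ± 0.16, adjusted p = 0.0162) and TBD (-0.69 ± 0.16, adjusted p = 0.0108). Its means of 3.67, 3.66 and 3.62 with the compounds lay near the array medians, against 4.31 with vehicle, so the sizes of these differences are uncertain at this signal. Abcc6, which encodes another pump of the basolateral membrane, fell with OLT (-0.87 ± 0.22, adjusted p = 0.0196). It gave -0.65 with D3T (adjusted p = 0.0547) and -0.66 with TBD (adjusted p = 0.0672), without a call. The monocarboxylate carrier Slc16a1 rose with OLT (0.84 ± 0.22, adjusted p = 0.0227). Slc22a7, the organic anion transporter OAT2, fell with TBD (-0.68 ± 0.17, adjusted p = 0.0162), as did the scaffold gene Pdzk1 (-0.54 ± 0.15), and Slc22a18 rose (0.36 ± 0.10, adjusted p = 0.0232). Other probe sets gave -0.58 for Slc22a7 with TBD (adjusted p = 0.00532) and 0.46 for Slc16a1 with OLT (adjusted p = 0.665). Slco1b2, Abcc4 and Abcg5, which were to be named, have no probe set with a single symbol of that name.

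Of 25 genes listed as regulators of the transporters, 16 were tested. With D3T 1 rose and 3 fell, with OLT 1 rose and 4 fell, and with TBD 0 rose and 4 fell, and the medians were 0.02, -0.05 and 0.00. Of all genes tested, 4.61% rose and 13.1% fell with D3T, 2.61% and 8.92% with OLT, and 2.80% and 10.0% with TBD. Fgfr4, the hepatic receptor of the intestinal hormone that restrains bile acid synthesis, fell with D3T (-1.76 ± 0.22), OLT (-1.23 ± 0.22) and TBD (-1.24 ± 0.22). Its adjusted p values ran from 0.000137 to 0.00257, although its other probe set gave -0.90, -0.53 and -0.76 without a call. Nr0b2, which encodes SHP, fell with OLT (-1.50 ± 0.40, adjusted p = 0.0254) and TBD (-1.71 ± 0.40, adjusted p = 0.0115) and gave -0.92 with D3T (95% interval -1.77 to -0.06, adjusted p = 0.133). The 2 other Nr0b2 probe sets gave -1.67 and -1.31 with OLT and -1.89 and -1.59 with TBD, all called. Nr1h4, which encodes FXR, rose with OLT by 0.32 ± 0.08 (adjusted p = 0.0237), and gave 0.11 with D3T and 0.03 with TBD. Foxa3, a hepatocyte forkhead factor, fell with D3T, OLT and TBD (-0.89, -0.88 and -0.90, each ± 0.23), and Cebpb, a factor of the acute phase, fell too (-0.87, -1.31 and -1.04, each ± 0.23). Cebpa, a hepatocyte factor, rose with D3T (0.63 ± 0.15, adjusted p = 0.0106). Its means of 4.65 with D3T and 4.02 with vehicle lay not far above the array medians, so the size of this rise is uncertain. Nfe2l2, which encodes NRF2, averaged 5.96 ± 0.45 with D3T, 7.01 ± 0.41 with OLT, 6.71 ± 0.62 with TBD and 6.70 ± 0.40 with vehicle, and was not called in any comparison.

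Of 13 genes of bile acid synthesis and conjugation, 11 were tested, and 0 rose with any compound. With D3T 6 fell, with OLT 3 and with TBD 5, with medians of -0.60, -0.48 and -0.50. Of all genes tested, 13.1% fell with D3T, 8.92% with OLT and 10.0% with TBD. The lipid carrier gene Scp2 fell with D3T (-0.63 ± 0.10), OLT (-0.72 ± 0.10) and TBD (-0.79 ± 0.10), with adjusted p between 0.000234 and 0.000755, and its other probe set gave -0.67, -0.41 (not called) and -0.63. The bile acid sulfotransferase Sult2a1 fell with D3T (-2.80 ± 0.38), OLT (-1.45 ± 0.38) and TBD (-2.43 ± 0.38). The hydroxysteroid dehydrogenase Akr1c14 fell with all 3 (-0.86, -0.57 and -0.71, each ± 0.15), and the sterol hydroxylase Cyp27a1 with D3T (-0.62 ± 0.15) and TBD (-0.50 ± 0.15). With OLT, Cyp27a1 gave -0.48 without a call (adjusted p = 0.0562). Other probe sets of Akr1c14 and Cyp27a1 were not called. Of the 3 other Sult2a1 probe sets, 1 gave -2.85 with D3T, -1.43 with OLT and -2.32 with TBD, all called, and another gave -3.52 with D3T and -3.16 with TBD, both called, and -1.73 with OLT (adjusted p = 0.118). The remaining one gave 0.36 with D3T, 0.04 with OLT and 0.06 with TBD, without a call. Sult2a1 has close paralogs whose transcripts its probe sets may share. Cyp7a1, which catalyses the first step of the classical pathway, gave -0.97 with D3T (95% interval -2.33 to 0.39), -0.56 with OLT and -1.32 with TBD, and was not called. Its other probe set gave 0.28 with D3T, 0.04 with OLT and 0.02 with TBD, also without a call. No gene of these 3 lists was called between compounds.

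**Figure D4:**
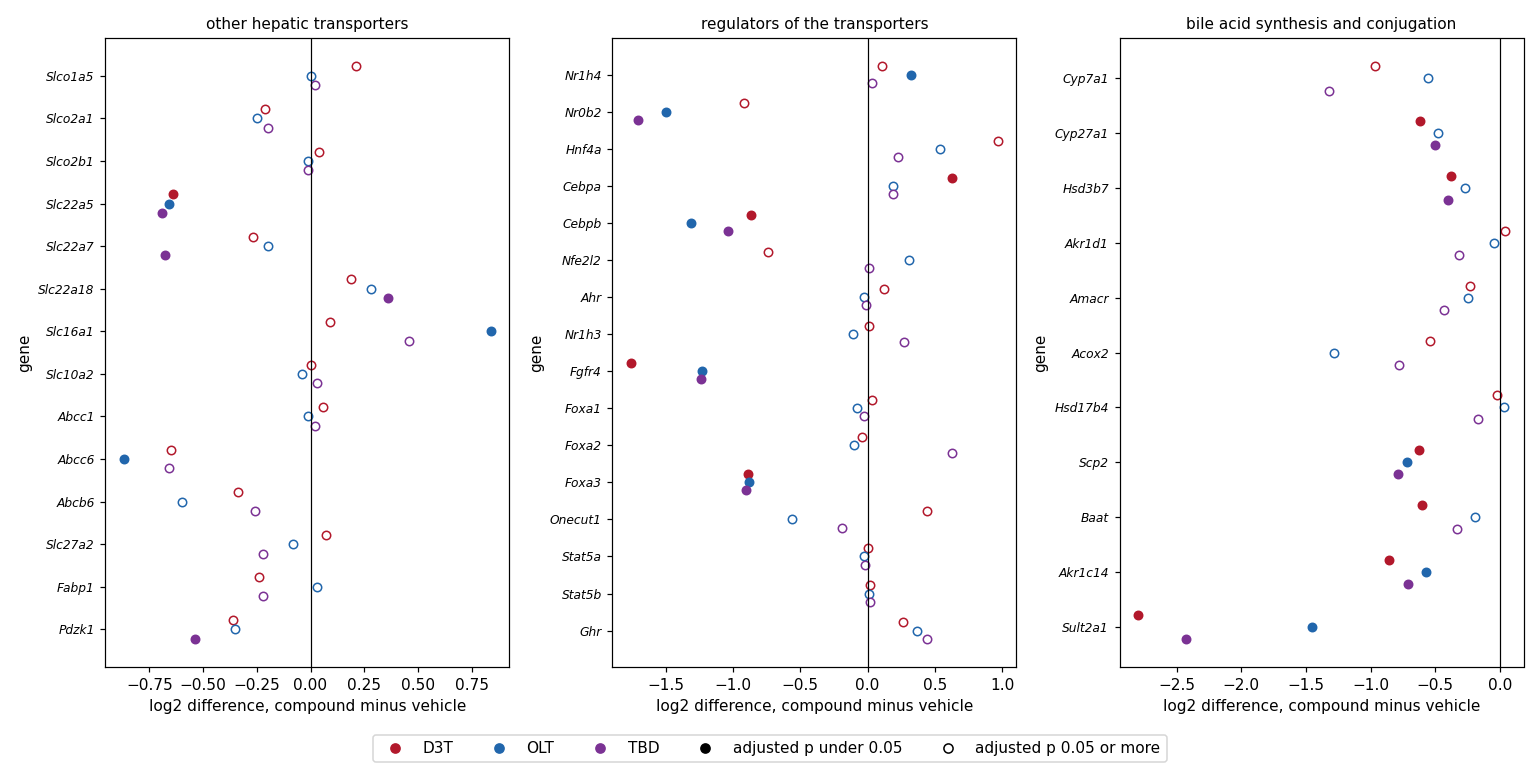
Log2 difference of each compound from vehicle (x axis, a separate scale for each panel) for the tested genes (y axis) of 3 lists, namely other hepatic transporters, regulators of the transporters, and bile acid synthesis and conjugation. Points are filled where the limma adjusted p was under 0.05, and in the right panel all filled points lie below 0.

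Genes with readings most like each called transporter were found by the root mean square distance over the 16 arrays, with each gene taken relative to its own vehicle mean. Nearest to Slco1a1 were the locus LOC102546572 (distance 0.318), the phosphatase gene Ptp4a1 (0.35) and Hook1 (0.385), which stood at -1.95, -2.07 and -1.80 with D3T. Nearest to Slc10a1 were Baat (0.104), which joins bile acids to taurine or glycine, the paraoxonase gene Pon1 (0.145) and Hsd3b7 (0.145), an enzyme of bile acid synthesis. Baat fell with D3T like Slc10a1, at -0.60 with D3T, -0.19 with OLT and -0.33 with TBD. Abcb11 lay nearest to the protease gene Ctsc (0.202), the cell polarity gene Patj (0.209) and the fibrinogen gene Fgg (0.229). Abcb4 lay nearest to Map3k1 (0.297), Smad4 (0.337) and Abcb11 itself (0.342). For Abcc2 the nearest were Cdk13 (0.268), Npepps (0.29) and Nfe2l2 (0.297), through a probe set at -0.46 with D3T, 0.27 with OLT and 0.02 with TBD. These distances are descriptions, and a small one is easier to reach for a gene that moved little.

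Markers of other liver cells were read from lists as well. Of 12 Kupffer cell and macrophage markers 7 were tested, and 4 fell with each compound, where 13.1% of all genes tested fell with D3T, 8.92% with OLT and 10.0% with TBD, the shares against which the marker counts are read. Their summed level (log2) was 10.44 to 10.72 with D3T, 10.35 to 10.77 with OLT and 10.50 to 10.90 with TBD, against 11.28 to 11.79 with vehicle, with Aif1 at -2.01, -2.18 and -2.21 and the Kupffer cell lectin gene Clec4f at -1.02, -1.18 and -1.02. Of 11 stellate cell markers 6 were tested, and 3 fell with D3T, 2 with OLT and 3 with TBD, with a summed level of 8.87 to 9.47, 9.61 to 10.25 and 9.04 to 9.72, against 10.02 to 10.53 with vehicle. Col1a1 (with each compound) and Col3a1 (with D3T and TBD) were among these falls, but their other probe sets were not called. Those gave -0.40, -0.45 and -0.43 for Col1a1 and -0.19, -0.05 and -0.47 for Col3a1 with D3T, OLT and TBD. Of 10 endothelial markers 5 were tested, and 2 fell with D3T, 0 with OLT and 1 with TBD (summed level 7.63 to 8.75, 8.43 to 9.90 and 8.05 to 9.00, against 8.56 to 9.27). Of 12 cholangiocyte markers 6 were tested and none was called, with a summed level of 7.51 to 7.76 with D3T, 7.39 to 7.82 with OLT, 7.65 to 8.26 with TBD and 7.34 to 8.06 with vehicle. Among 11 hepatocyte markers tested, 2 rose with D3T, namely Ttr (0.56 ± 0.11) and Alb, while Fgb fell (-0.70 ± 0.20), and none was called with OLT or TBD. The other Ttr probe set gave 0.36 with D3T without a call (limma adjusted p = 0.0859), while the other Alb probe sets were called with D3T. Alb read 15.90 to 15.91 on the D3T arrays, against 15.38 to 15.46 on vehicle arrays, near the highest deposited value of 15.9, so no size is given for its difference. The summed Kupffer level of every treated array lay below every vehicle array, as Slco1a1 did, and the stellate level did so with D3T and TBD. The part of these cells in the results was not tested.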

How the data were processed

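Liver RNA of 16 rats was labelled with biotin and hybridised to 1-colour arrays, 1 per animal, per the labels' protocols. The authors deposited log2 values of 8740 probe sets, and the submitters' processing notes name GCRMA, with a version not given in the sources used here. Background is corrected by probe sequence in GCRMA, followed by quantile normalization, so values of dim genes such as Abcc3 depend on that correction. The number of arrays limits the precision, and scan dates were not used here. The labels give 4 randomised animals per group, so p-values measure animal and technical spread together.

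Probe sets were named from the platform annotation, where 7006 had 1 symbol, 308 several and 1426 none, and 6985 were matched by Entrez ID to RefSeq (GRCr8). Tested were the 5323 probe sets that exceeded the 40th percentile of their array on 4 or more of the 16 arrays. Group means were fitted over all 16 arrays with limma 3.58.1 in R 4.3.3 (residual df 12, prior df 2.41), for 6 comparisons, two-sided. A gene with several probe sets was represented by the tested one with the highest mean. The fit was also run on simulated data with independent normal spread, and no result here rests on that run. Promoter windows of 5 transporters were found in RefSeq and aligned with Biopython 1.88. Columns of no sample numbered 0.

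Named were the 7 transporters, genes among the 4 largest called differences per list and compound against vehicle, 8 genes regardless of result, and the 3 nearest genes to each called transporter. The members and lists were chosen with earlier results of these data known, and the motifs and the Slco1a pair after the values were seen. Alternatives were other filters, priors, scalings, floors, array sets, weights and p adjustments, averaging over probe sets of a gene, a replicate block, and leaving out arrays.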

Additional observations from a re-analysis of the deposited data

Results flagged for a closer look

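Among 28 groups of 4 arrays (7 transporters in 4 groups), 3 had 1 array far from the other arrays by Dixon's criterion (the gap to the nearest array over the group's range, at the 95% level), and chance alone gives about 1 in 20. Slco1a4 read 8.89 on TBD replicate 4, against 9.57 to 9.64 on the other TBD arrays (0.918). Abcc3 read 4.68 on D3T replicate 4, against 3.23 to 3.39 on the other D3T arrays (0.884). It also read 4.39 on OLT replicate 1, against 3.35 to 3.52 on the other OLT arrays (0.842). OLT replicate 1 and TBD replicate 4 are the arrays lowest on the second principal component, and Abcc3 read 6.69 on TBD replicate 4, where the gap stayed under the criterion. Without both arrays the TBD difference of Slco1a4 from vehicle was 0.049.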

How the results depend on the processing

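Over 27 alternatives, Slco1a1 with all 3 compounds, Slc10a1 and Abcb11 with D3T, and Abcc2 between D3T and OLT kept direction and call. Abcb4 kept direction in all 27 and its call in 24 with D3T and in 19 between D3T and OLT, and Abcc2 with OLT kept its call in 14. The cause of each loss was not tested. Other filters, priors and p adjustments, and leaving out an array of a group outside the comparison, leave the difference itself unchanged. So do a replicate block, a fit of only the 8 arrays compared, and averaging over probe sets, with 1 per transporter. The floor changes nothing either, since it lay below every transporter reading. In those alternatives the direction could not change, and only the call was open.

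The count of transporters called with OLT, 2, was 1 with no filter, a trend and robust prior, only the 8 arrays compared, a replicate block, centring, adjustment over all 6 comparisons, or without OLT replicate 1 and TBD replicate 4 together (chosen after seeing the data). Between D3T and OLT it was 1 rather than 2 with only the 8 arrays compared or quantile normalization. Between D3T and TBD it was 1 rather than 0 with joint adjustment or array weights, and with TBD 2 rather than 1 with array weights. The replicate block otherwise changed no transporter call and gave 888, 526 and 630 probe sets called with D3T, OLT and TBD, and replicate numbers did not pair the arrays, since 8 of 24 same-numbered pairs had deviations correlated above 0.1 (r of -0.524 to 0.323) and 5 of 16 arrays correlated best with their own number. Leaving out 1 array gave 1 to 3 transporters between D3T and OLT and 1 to 2 with OLT.

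Probe sets called with D3T, OLT and TBD (981, 600 and 693) were 2263, 1066 and 1333 with array weights, which did not fully converge and gave vehicle replicate 3 a weight of 19.4, and 528, 354 and 401 genes with the mean of probe sets. Centring gave 361 with OLT and 426 with TBD, and only the 8 arrays gave 361 with TBD. Between D3T and OLT (57) the counts were 142 with joint adjustment, 171 with weights, 28 with gene means, 92 after quantile normalization, 88 without both arrays and 30 to 84 leaving out 1. Between D3T and TBD (35) they were 102, 152 and 14 with the first 3 of these, 13 after centring, 8 with only the 8 arrays and 19 to 41 leaving out 1. Between TBD and OLT (3) they were 15 with joint adjustment, 1 with gene means and 3 to 6 leaving out 1.

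Only differences without a call changed sign. Array weights gave 0.021 for Abcb11 between TBD and OLT and 0.019 for Slc10a1 with OLT. Quantile normalization gave 0.066 and 0.00802 for Abcb11 with OLT and TBD, 0.027 for Abcb4 with TBD and -0.033 for Abcc3 between D3T and OLT. Centring gave -0.076 for the same Abcc3 difference and -0.046 for Slco1a1 between D3T and TBD. Without both arrays, Abcc3 gave 0.28 between D3T and TBD and -0.027 between TBD and OLT, and Slco1a4 gave 0.049 with TBD. Leaving out 1 array gave -0.13 to 0.037 for Abcb11 with OLT, -0.30 to 0.049 for Slco1a4 with TBD and -0.067 to 0.10 for Slco1a1 between D3T and TBD. For Abcc3 it gave -0.33 to 0.25 between D3T and OLT, -0.91 to 0.28 between D3T and TBD and -0.27 to 0.92 between TBD and OLT. Abcc3 lay near background on most arrays, which limits what its values show.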

Other observations

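Vehicle replicate 1 read below its group mean for all 6 transporters other than Abcc3, by 0.26 on average on the log2 scale. Vehicle replicates 2, 3 and 4 were below their group mean for 1, 2 and 0 of the 6. D3T replicate 3 stood 0.24 above the D3T mean on average and was the highest D3T array for Slco1a4, Abcb11 and Abcb4.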
